A study of Mus musculus with 6 samples.

Results

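The cluster of miR-183, miR-96 and miR-182 is a group of microRNA hairpins that lie side by side on mouse chromosome 6. Its members were the 5 mature microRNAs of these hairpins listed as mmu-miR-183-5p, mmu-miR-183-3p, mmu-miR-96-5p, mmu-miR-182-5p and mmu-miR-182-3p (mmu, for mouse, is left out below), of 1907 mature microRNAs listed in the liver read-count table. All 5 names were found. They were selected on a known role in hepatic lipid control and chosen by their read counts in these libraries, which varied together, so the levels per library and their shared variation are given as a description, without a test of that variation. The diet values come from a fit over the whole table and are read beside its background.

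Liver small RNA of 6 male mice, all of a mixed strain background, was sequenced, each library from a different mouse. The soy group was 3 mice that ate for 4 weeks a chow of 75% granulated regular food and 25% soy bean powder. The regular group was 3 mice that ate 100% granulated regular food, and the labels give an age of 12 weeks for both groups. The comparison asks which liver microRNAs differ between mice given soy and mice given regular chow.

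MicroRNAs are short RNAs that pair with messenger RNAs, mainly through a seed near their 5′ end, and lower their translation or stability. The miR-183, miR-96 and miR-182 hairpins are cut from a shared primary transcript and are best known from sensory organs such as the retina and the inner ear. In mouse liver the locus is known as a target of SREBP-2, the transcription factor that switches on sterol synthesis, and miR-96 and miR-182 are known to repress Insig2 and Fbxw7, proteins that hold SREBP activity down. From each hairpin the cell keeps mostly one arm, here the 5p arm, while the other arm is usually degraded.

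The mature sequences are shown because the seeds set which messenger RNAs a member can pair with. They are RefSeq sequences on GRCm38.p6, 5′ to 3′, with the seed (bases 2 to 8) in capitals, and miR-96-3p, which is no member, completes the set.
miR-182-5p: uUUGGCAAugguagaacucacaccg
miR-96-5p: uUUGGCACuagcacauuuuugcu
miR-183-5p: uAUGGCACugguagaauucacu
miR-182-3p: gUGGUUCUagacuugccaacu
miR-96-3p: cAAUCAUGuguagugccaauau
miR-183-3p: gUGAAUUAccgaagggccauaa

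The 5p arms had closely related but different seeds. Counted from the 5′ end without gaps, with the base of miR-182-5p given first, miR-96-5p differed from miR-182-5p in the seed by A8C alone, so they shared bases 2 to 7, while miR-183-5p differed from it there by U2A and A8C. Over their whole length miR-182-5p and miR-183-5p were the closer pair, with 18 of 22 compared bases identical, against 12 of 23 for miR-182-5p and miR-96-5p. Of 1679 mature mouse microRNAs in the RefSeq table, miR-1271-5p was the only other with the miR-96-5p seed, and it is not listed in the count table. No other mature microRNA of that table carried the 7-base seed of miR-182-5p, miR-183-5p, miR-182-3p or miR-183-3p.

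The hairpins are shown to place the arms, with both mature arms in capitals.
Mir182: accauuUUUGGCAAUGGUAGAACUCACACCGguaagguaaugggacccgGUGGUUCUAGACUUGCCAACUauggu
Mir96: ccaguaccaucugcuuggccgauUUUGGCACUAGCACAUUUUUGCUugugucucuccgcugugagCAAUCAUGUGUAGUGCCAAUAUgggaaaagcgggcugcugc
Mir183: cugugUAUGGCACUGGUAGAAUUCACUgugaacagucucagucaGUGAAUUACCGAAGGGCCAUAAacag

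All 3 hairpins lie on the minus strand of chromosome 6 (GRCm38.p6), at chr6:30165918-30165992 for Mir182, chr6:30169446-30169551 for Mir96 and chr6:30169668-30169737 for Mir183. In the direction of transcription Mir183 comes first, 116 bases before Mir96, and Mir182 follows 3453 bases after Mir96. In the GENCODE M21 annotation no other gene overlaps this stretch of 3820 bases. The nearest annotated gene is the long non-coding RNA Rncr4, 3155 bases away on the opposite strand, followed by the protein-coding gene Nrf1 at 12459 bases.

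The libraries held 10032094 to 12762916 microRNA reads in soy and 5727546 to 10325712 in regular mice. Levels are given as CPM, the reads of a microRNA relative to its library size, brought to a common total after TMM scaling (trimmed mean of M-values). All 7 hepatocyte markers of the fixed list were detected, together at 288339 to 336016 CPM in soy livers and 268604 to 351999 CPM in regular livers, so the labelled tissue carried its markers. Soy replicate 1 and regular replicate 1 stood apart from the other libraries: on the first principal component of 212 microRNAs, which held 44.1% of the variance, their scores were -4.36 and -7.18, whereas the other 4 libraries lay between 2.07 and 4.15. The labels give no batch or date that joins these libraries. Since the cluster is highest in both, diet values are given with and without them.

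miR-182-5p carried nearly all reads of the cluster. It stood at 4004, 1897 and 2001 CPM in soy replicates 1, 2 and 3, against 3157, 2122 and 1576 CPM in regular replicates 1, 2 and 3. This placed it at rank 33 of 716 microRNAs with a read in any library, by mean level. Soy replicate 1 and regular replicate 1 were the highest of their diets, the other 4 libraries lay close together, and the ranges of the diets overlapped. In bulk liver a larger share of the cells that make a microRNA and more of it per cell cannot be told apart. The highest library exceeded the lowest by 2.54 times.

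miR-183-5p, which differs from miR-182-5p at the seed positions above, was an order of magnitude lower. Its levels were 320, 111 and 111 CPM in soy replicates 1, 2 and 3, against 245, 114 and 69.0 CPM in regular replicates 1, 2 and 3. The order of the libraries was the same as for miR-182-5p, with soy replicate 1 and regular replicate 1 on top and regular replicate 3 at the bottom, and soy replicates 2 and 3 were level. It ranked 95 of 716, and its highest library exceeded its lowest by 4.63 times, a wider range than that of miR-182-5p.

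miR-96-5p, the member whose seed is closest to that of miR-182-5p, was the rarest 5p arm. It had 245, 70 and 118 reads in soy replicates 1, 2 and 3, against 109, 30 and 29 reads in regular replicates 1, 2 and 3. In CPM these were 19.9, 6.96 and 11.8 in soy and 10.7, 3.00 and 4.64 in regular livers. Soy replicate 1 was again the highest, but here soy replicate 3 lay above regular replicate 1, and the diets overlapped only through regular replicate 1 and soy replicate 2. miR-96-5p ranked 217 of 716.

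The 3p arms were hardly seen. miR-183-3p had 0, 0 and 21 reads in soy replicates 1, 2 and 3, against 6, 27 and 0 in regular replicates 1, 2 and 3. Its reads did not go with those of its 5p arm, as it had 0 reads in soy replicate 1, where miR-183-5p was highest. There a count of 0 allows up to 0.0763% of the reads of the hairpin (3 reads), below the 2.31% measured in regular replicate 2. miR-182-3p had 1 read in all, in soy replicate 3, and miR-96-3p had 0 in every library.

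**Figure D1:**
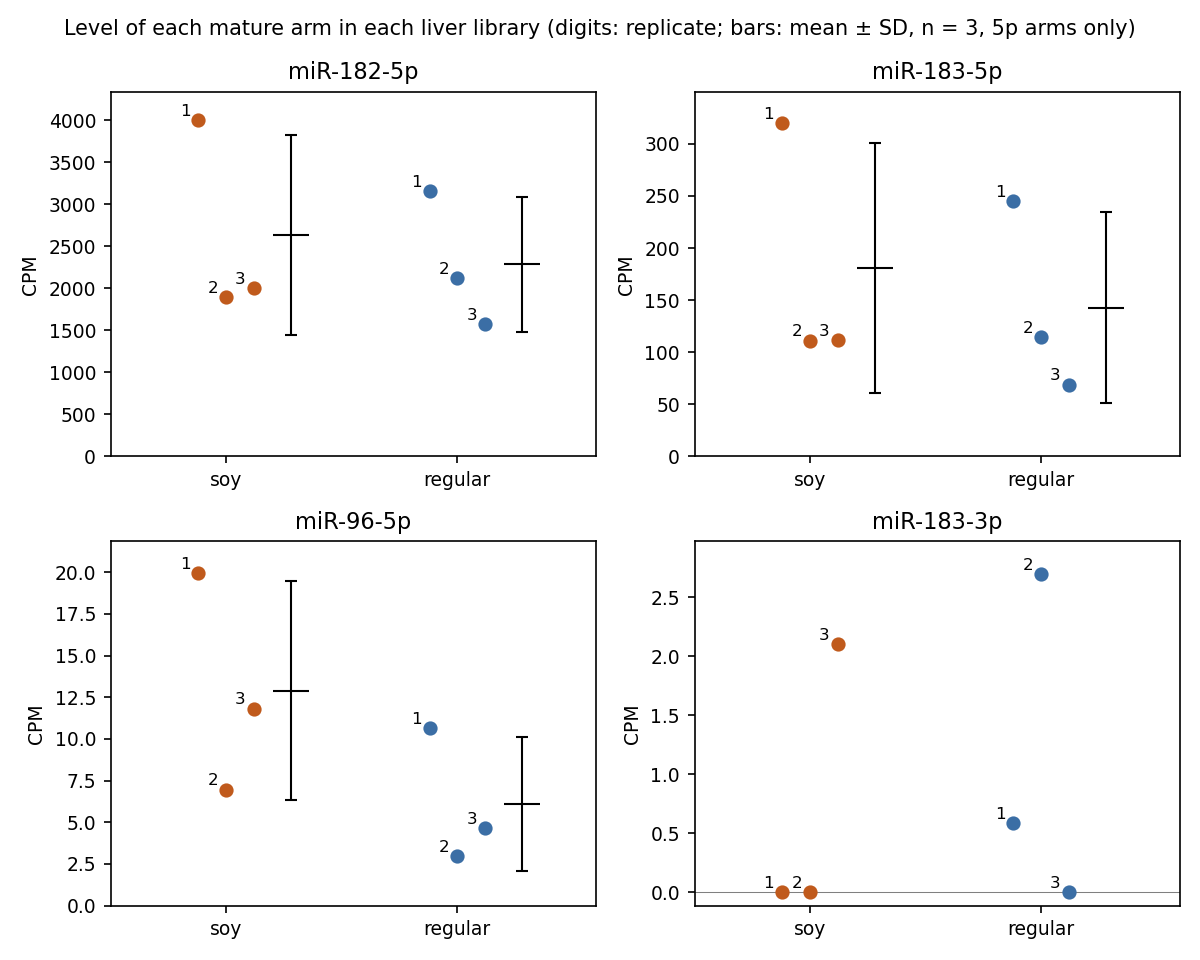
Level in CPM of miR-182-5p, miR-183-5p, miR-96-5p and miR-183-3p in each library, soy left and regular right, 1 point a mouse with its replicate number. Bars give the mean and SD (n = 3) of the 5p arms. Replicate 1 is the highest of its diet for each 5p arm, and the diets overlap in each panel.

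The 5p arm made up 100% of the Mir182 reads after rounding in each library (1 read of the 3p arm beside 151647 of the 5p arm) and 100% of the 601 Mir96 reads, where 0 reads of the 3p arm allow a share of up to 0.499%. For Mir183 the 5p share was 99.4% ± 1.07 in soy and 99.2% ± 1.27 in regular livers (SD, n = 3 each), so the diets differed by less than the spread between mice. The lowest 5p share of Mir183 was 97.7%, in regular replicate 2, with a 95% exact binomial interval of 96.7% to 98.5%. These intervals and limits cover counting error only, since reads copied by PCR are not independent molecules.

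Although the 5p arms come from a shared transcript, their reads were far from equal. In all libraries together miR-182-5p took 93.3% of the cluster's reads, miR-183-5p 6.30% and miR-96-5p 0.370%. The mature arms are of nearly equal length (22 to 25 bases), so no scaling by length was made, and how evenly they entered the libraries was not tested. The order miR-182-5p, miR-183-5p, miR-96-5p held in all 6 libraries.

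The ratio of miR-182-5p to miR-183-5p was lowest in soy replicate 1 and regular replicate 1. It was 12.5, 17.1 and 18.0 in soy replicates 1, 2 and 3, against 12.9, 18.6 and 22.8 in regular replicates 1, 2 and 3. The exact binomial intervals of soy replicate 1 (12.1 to 12.9) and regular replicate 1 (12.4 to 13.4) show how precisely each library's ratio was counted, and do not cover the spread between mice. By diet the ratio was 15.9 ± 2.92 in soy and 18.1 ± 5.01 in regular livers (SD, n = 3 each), a difference smaller than the spread between mice.

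The ratio of miR-183-5p to miR-96-5p followed another order. It was 16.0, 16.0 and 9.42 in soy replicates 1, 2 and 3, against 23.0, 38.1 and 14.9 in regular replicates 1, 2 and 3. Regular replicate 2 was the highest, with an interval of 26.6 to 56.8 that rests on 30 reads of miR-96-5p, and soy replicate 3 the lowest, with an interval of 7.78 to 11.5. The diets averaged 13.8 ± 3.81 in soy and 25.3 ± 11.8 in regular livers (SD, n = 3 each), and their ranges overlapped.

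**Figure D2:**
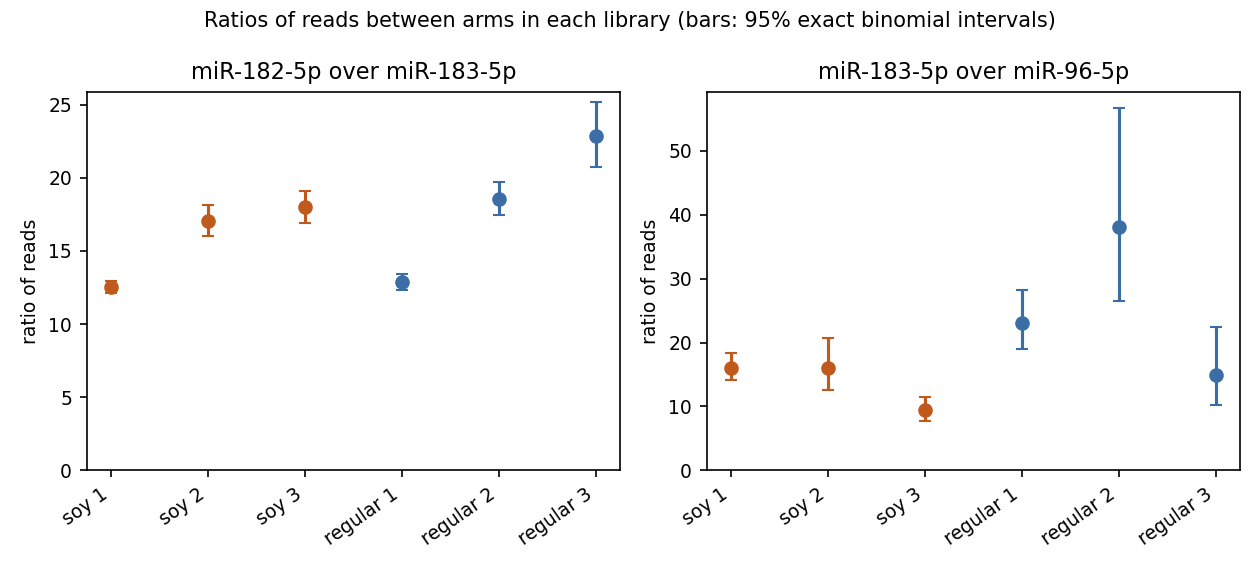
Ratio of miR-182-5p to miR-183-5p reads (left) and of miR-183-5p to miR-96-5p reads (right) in each library, soy left of regular, with 95% exact binomial intervals. On the left soy 1 (12.5) and regular 1 (12.9) lie below the other 4 libraries, and on the right regular 2 (38.1) is highest.

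miR-182-5p and miR-183-5p varied together almost completely. Over the 6 libraries their log2(CPM + 0.5) values gave Pearson's r = 0.992 and Spearman's rho = 1, and r = 0.992 for deviations from the diet means. Without soy replicate 1 and regular replicate 1, the libraries farthest from the median, r was 0.95 over the remaining 4. These arms share the library, its depth and the mouse, and the members were chosen for this pattern, so no p is given.

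miR-96-5p followed the other 5p arms less closely. Its r was 0.722 with miR-182-5p and 0.741 with miR-183-5p, with a rho of 0.543 for both. Without soy replicate 1 and regular replicate 1 these values were 0.0373 and 0.221, so the relation rests on those libraries. miR-183-3p did not follow its own 5p arm over the 6 libraries (r = -0.135), but it had at most 27 reads in a library.

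Ranked among all 437 microRNAs tested, the spread of the 5p arms between libraries was not extreme. Rare microRNAs are among these 437, and spread was not compared at like level. The SD of log2(CPM + 0.5) was 0.50 for miR-182-5p, 0.82 for miR-183-5p and 0.92 for miR-96-5p, beside a median of 0.57 over the 437 microRNAs tested. Of these microRNAs 55.8% had a larger SD than miR-182-5p, 35.0% a larger one than miR-183-5p and 29.3% a larger one than miR-96-5p.

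Between the diets no member passed the test. Of the 5 members, 4 had at least 4 reads in at least 3 libraries and were tested, and 0 of these were called by edgeR's quasi-likelihood test at a Benjamini-Hochberg adjusted p under 0.05, where 0% of the 437 microRNAs tested were called. At an unadjusted p under 0.05 edgeR gave 0 members and 5.03% of all microRNAs tested. DESeq2 and limma-voom also called 0 members, against 0.458% and 0% of all microRNAs, and edgeR without the filter on low counts called 0 of the 5 members and 1.12% of 716 microRNAs. The soy and regular ranges overlapped for every member, whereas they did not overlap for 12.8% of the microRNAs tested. Relative to regular livers, soy livers had 3 tested members at a higher and 1 at a lower level, with 0.27 as the median log2 fold change, beside 212 higher and 225 lower with a median of -0.02 over all 437.

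The difference was smallest for the abundant arms. miR-182-5p averaged 2634 ± 1188 CPM in soy livers and 2285 ± 803 CPM in regular livers (SD, n = 3 each), a log2 fold change of 0.21 ± 0.33 (SE, edgeR adjusted p = 0.982) with a 95% interval of 0.696 to 1.91 on the fold scale. miR-183-5p averaged 181 ± 120 CPM in soy livers and 143 ± 91.6 CPM in regular livers, a log2 fold change of 0.34 ± 0.51 (SE, edgeR adjusted p = 0.982) with an interval of 0.573 to 2.79 on the fold scale. The difference between the diet means held 3.61% of the variance of log2(CPM + 0.5) of miR-182-5p and 5.18% of that of miR-183-5p, and the rest lay between mice of the same diet. Without soy replicate 1 the log2 fold changes turned to -0.23 and -0.36, and without regular replicate 1 they were 0.59 and 1.07.

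miR-96-5p had the largest fold change among the 5p arms. It averaged 12.9 ± 6.55 CPM in soy livers and 6.10 ± 4.03 CPM in regular livers (SD, n = 3 each), a log2 fold change of 1.08 ± 0.61 (SE, edgeR adjusted p = 0.982) with a 95% interval of 0.816 to 5.46 on the fold scale. The difference between the diet means held 40.9% of its variance on the log2 scale. How large a share arises without a diet effect was not tested. The share of miR-96-5p was not compared with that of all microRNAs. miR-96-5p kept its direction in each of 15 alternative fits, at log2 fold changes of 0.62 to 1.85 with adjusted p from 0.590 to 0.996. Without regular replicate 1 the log2 fold change was 1.85 and without soy replicate 1 it was 0.62.

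Without both soy replicate 1 and regular replicate 1, no 5p arm passed the test of the diets. The log2 fold changes were 0.15 for miR-182-5p (edgeR adjusted p = 0.937), 0.35 for miR-183-5p (0.867) and 1.39 for miR-96-5p (0.745). The libraries left in that comparison were 2 for each diet. For miR-96-5p they held 6.96 and 11.8 CPM in soy, above the 3.00 and 4.64 CPM in regular livers. This separation follows from leaving out regular replicate 1, the only regular library that overlapped with soy. The share of all microRNAs that separate in these libraries was not counted, so the separation says nothing for or against a difference.

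Two-sided exact permutation tests of log2(CPM + 0.5) over 20 assignments of the libraries gave p = 0.7 for miR-182-5p, 0.7 for miR-183-5p and 0.2 for miR-96-5p (0.7, 0.7 and 0.6 after Benjamini-Hochberg adjustment over the 3). With 3 mice against 3 the smallest p this test can give is 0.1, so it could not pass 0.05 and says nothing for or against a difference. miR-183-3p was too sparse to place: its log2 fold change was -0.65 ± 2.27 (SE, edgeR adjusted p = 0.982).

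The summed level of the members was 2828 ± 1313 CPM in soy livers and 2435 ± 898 CPM in regular livers (SD, n = 3 each). It ranged from 2015 to 4344 CPM in soy livers and from 1649 to 3413 CPM in regular livers, and the cluster took 0.180% to 0.418% of the reads of a library. The deepest library, soy replicate 1, was the highest and the shallowest, regular replicate 3, the lowest. Between them the level did not go with depth: regular replicate 1 held 10242893 reads at 3413 CPM. Regular replicate 2 held 10325712 reads at 2242 CPM, soy replicate 2 held 10032094 at 2015 CPM and soy replicate 3 held 10175634 at 2126 CPM. The part of depth in these levels was not tested.

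**Figure D3:**
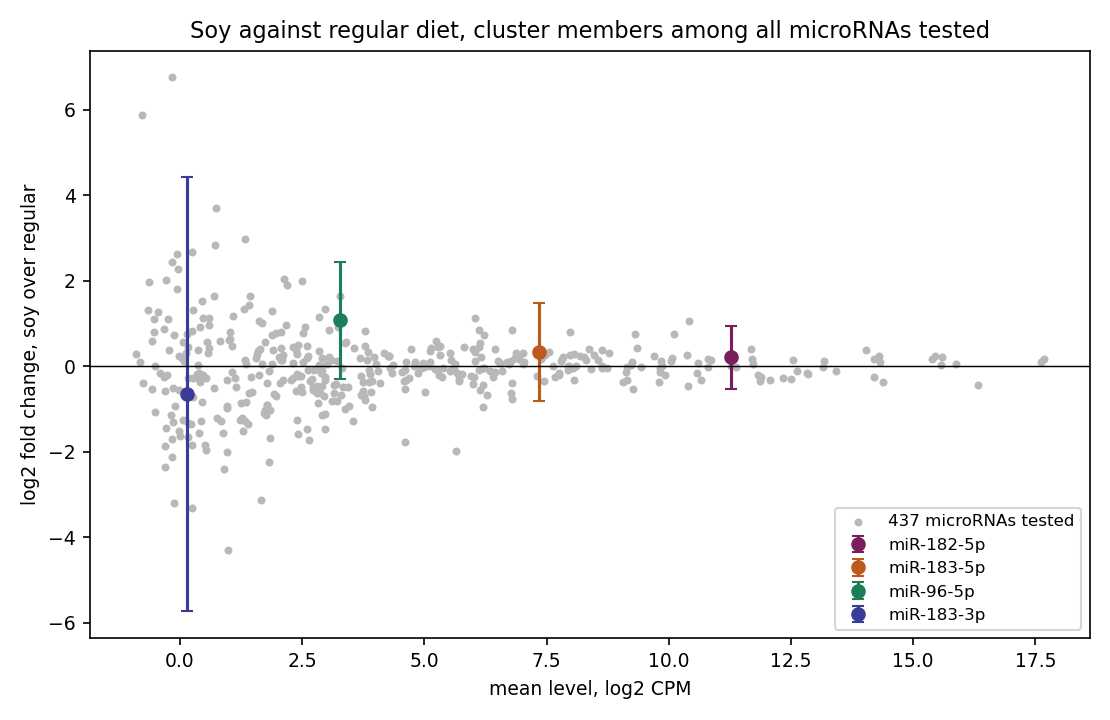
Log2 fold change, soy over regular (vertical), against mean level in log2 CPM (horizontal) for the 437 microRNAs tested, in grey, with 4 cluster members in colour and their 95% intervals. Each interval spans 0, and the log2 fold changes run from -0.65 for miR-183-3p to 1.08 for miR-96-5p.

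The microRNAs of highest Pearson's r with the cluster were miR-15b-5p, of a family known to restrain the cell cycle, miR-191-5p, and miR-192-5p, which hepatocytes and intestinal epithelium make in large amounts. Among 210 microRNAs with a mean of at least 10 CPM outside the cluster, their r with its summed level over the 6 libraries was 0.958 for miR-15b-5p, 0.919 for miR-191-5p and 0.914 for miR-192-5p. The corresponding rho values were 0.886, 0.657 and 0.829, and the order depends on the measure: miR-335-5p and miR-199a-5p, named after their values were seen, had the highest rho (0.943 each), and with levels scaled by library totals miR-191-5p came at rank 4. These points share library, depth and scaling, and the microRNAs were picked for their r, so no p is given.

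miR-15b-5p stood at 186, 101 and 108 CPM in soy replicates 1, 2 and 3, against 169, 106 and 104 CPM in regular replicates 1, 2 and 3. It was high in the same pair of libraries as miR-182-5p, and nearly level in the other 4. Without that pair its r was 0.383, and that of miR-191-5p 0.216, so both rest on these libraries, whereas miR-192-5p kept 0.854. Over so few libraries r can move widely: with the same pair left out, that of miR-215-5p (described below) went from -0.865 to 0.361. The 0.854 therefore does not set miR-192-5p apart. The range of miR-192-5p was narrow, with its highest library 1.46 times its lowest.

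At the other end, miR-1198-5p was low where the cluster was high (r = -0.949, rho = -0.829). It stood at 31.5, 42.2 and 48.6 CPM in soy replicates 1, 2 and 3, against 33.3, 43.7 and 49.0 CPM in regular replicates 1, 2 and 3. Soy replicate 1 and regular replicate 1 were its lowest libraries. Without them r was -0.507.

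**Figure D4:**
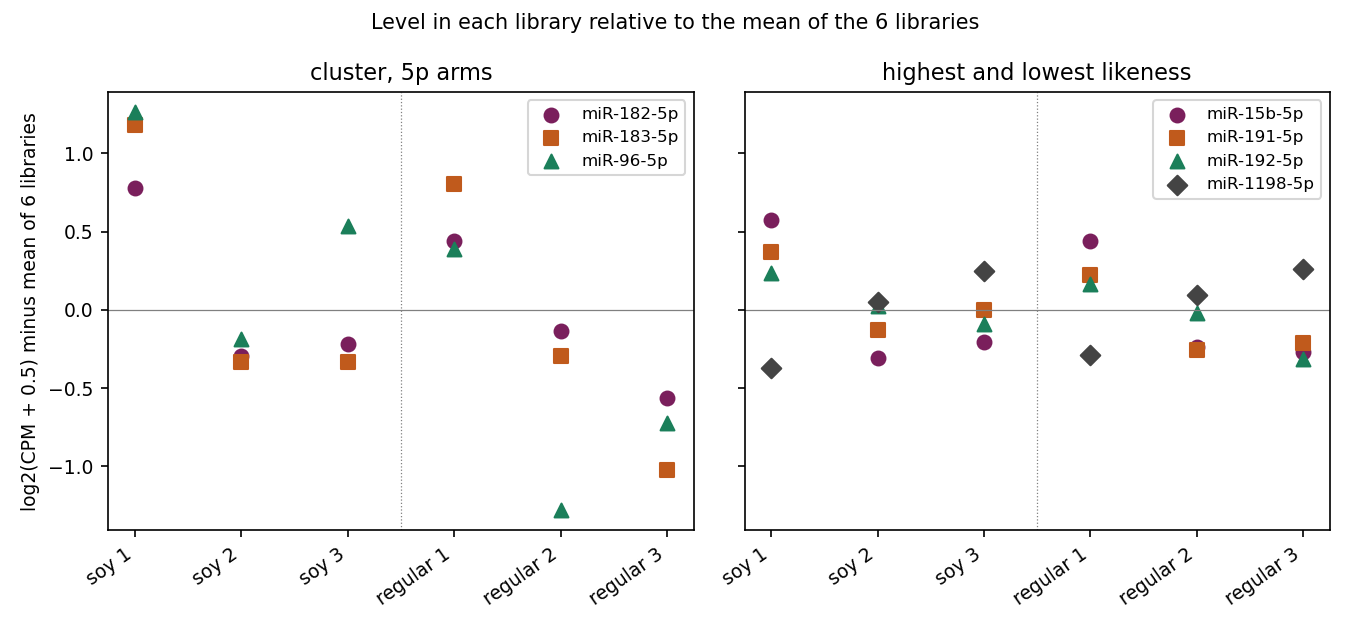
Level of each microRNA in each library as log2(CPM + 0.5) minus its mean over the 6 libraries, soy left of regular. On the left the cluster's 5p arms, with miR-182-5p and miR-183-5p highest in soy 1 and regular 1. On the right are the microRNAs of highest r (0.958, 0.919 and 0.914), high in the same libraries, and that of lowest r (-0.949), low in them.

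Markers of other cell types differed in how they went with the cluster over the 6 libraries. Their summed levels gave Pearson's r with that of the cluster of 0.130 for epithelial and bile duct, -0.816 for neural, sensory and endocrine, 0.146 for leukocyte, 0.792 for mesenchymal and -0.250 for erythroid markers, beside 0.788 for hepatocyte markers. Each sum is weighted to its abundant members. miR-192-5p, miR-143-3p and miR-375-3p, the most abundant of the hepatocyte, mesenchymal and neural, sensory and endocrine lists, alone gave 0.914, 0.794 and -0.828. The other hepatocyte markers gave -0.75 to 0.36. The other mesenchymal markers with a mean of at least 10 CPM gave -0.59 to 0.61. The part of cell makeup in the levels of the cluster was not tested. The 8 epithelial and bile duct microRNAs summed to 1539 to 1588 CPM in soy livers and 1437 to 1668 CPM in regular livers. Their most abundant member miR-31-5p averaged 684 ± 24.9 CPM in soy and 695 ± 58.0 CPM in regular mice (SD, n = 3 each), with overlapping ranges. Of the 8, 4 were higher and 4 lower in soy and 0 were called, with miR-141-3p of the miR-200 family at a log2 fold change of 0.86 ± 0.24 (SE, edgeR adjusted p = 0.696).

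Of 9 neural, sensory and endocrine microRNAs, miR-124-3p, miR-9-3p and miR-7b-5p had 0 reads in every library. The list summed to 29.6, 107 and 163 CPM in soy replicates 1, 2 and 3, against 22.8, 64.8 and 83.5 CPM in regular replicates 1, 2 and 3, so this sum was lowest in the libraries where the cluster was highest. Not every member followed that order: miR-184-3p, named after its values were seen, had its most reads (46) in regular replicate 1. The sum was led by the list's most abundant member miR-375-3p, a microRNA of endocrine cells, at 13.8, 101 and 155 CPM in soy replicates 1, 2 and 3, against 8.80, 49.6 and 64.3 CPM in regular replicates 1, 2 and 3. Its log2 fold change was 1.14 ± 0.80 (SE, edgeR adjusted p = 0.982), and it was called by edgeR without the filter on low counts (adjusted p = 0.00760). That fit pooled the spread over all 716 microRNAs with a read, so its p does not measure the spread of miR-375-3p between mice. Of the 4 tested, 1 was higher and 3 were lower, and 0 were called.

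The other cell type lists had 0 members called as well. Of 6 leukocyte microRNAs 5 were higher and 1 lower, with sums of 2706 to 3550 CPM in soy livers and 2066 to 2368 CPM in regular livers, and with miR-150-5p of lymphocytes at 0.86 ± 0.25 and the abundant miR-146a-5p at 0.26 ± 0.18 (log2 fold change and SE). These sums did not overlap between the diets, as was so for the ranges of 12.8% of all microRNAs tested. The ranges of miR-146a-5p, the most abundant of the 6, did overlap, as did those of miR-142a-3p, miR-155-5p and miR-223-3p. Those of miR-150-5p and miR-142a-5p did not. Scaled by library totals, miR-142a-5p, named after its values were seen, stood at 1180 to 1678 CPM in soy and 659 to 1129 CPM in regular livers. The unadjusted edgeR p was under 0.05 for 2 of the 6, beside 5.03% of all microRNAs tested. Of 5 tested mesenchymal microRNAs 2 were higher and 3 lower, with miR-143-3p of smooth muscle at 0.23 ± 0.18 and miR-145a-5p at -0.96 ± 0.22. For miR-145a-5p the adjusted p was 0.295 by edgeR and 0.00952 by DESeq2, which called it. For miR-150-5p it was 0.696 by edgeR and 0.0373 by edgeR without the filter on low counts. The fit without that filter pooled the spread over all its microRNAs, so the 0.0373 does not measure the spread of miR-150-5p between mice. The mesenchymal markers summed to 25808, 23894 and 19297 CPM in soy replicates 1, 2 and 3, against 24972, 18151 and 16750 CPM in regular replicates 1, 2 and 3, so this sum was highest in each diet in the library where the cluster was highest. Most of the sum was miR-143-3p (22621 CPM in soy replicate 2), whereas miR-145a-5p was highest in replicate 3 of each diet. Of 4 erythroid microRNAs 3 were higher and 1 lower, with miR-451a at 0.12 ± 0.28 and miR-144-3p at 0.72 ± 0.38. Of the 7 hepatocyte microRNAs 4 were higher and 3 lower, with miR-192-5p at 0.11 ± 0.15.

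Other microRNAs of hepatic lipid and sterol control did not pass the test either. Of 26 listed, 25 were tested, and of these 15 were higher and 10 lower, 0 were called, and the median log2 fold change was 0.11. miR-148a-3p, which lowers the LDL receptor, was the most abundant and had the smallest p, with 70055 ± 5031 CPM as the mean of soy and 94756 ± 17731 CPM as that of regular livers (SD, n = 3 each), a log2 fold change of -0.44 ± 0.15 (SE, edgeR adjusted p = 0.728).

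miR-33, which lies in an intron of the gene for SREBP-2 and represses the cholesterol exporter Abca1, was rare in these livers. miR-33-5p had 0, 54 and 98 reads in soy replicates 1, 2 and 3, against 0, 42 and 28 reads in regular replicates 1, 2 and 3. The libraries without a read of it were again soy replicate 1 and regular replicate 1, where the cluster was highest, and a count of 0 allows up to 0.244 and 0.293 CPM there (3 reads). Its other arm miR-33-3p had 2, 50 and 16 reads in soy replicates 1, 2 and 3, against 45, 32 and 38 reads in regular replicates 1, 2 and 3, and so was present in regular replicate 1. The log2 fold changes were 0.81 ± 1.63 for miR-33-5p and -1.02 ± 1.08 for miR-33-3p (SE, edgeR adjusted p = 0.982 for both).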

How the data were processed

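Small RNA libraries of 3 soy and 3 regular livers were made with a TruSeq kit and sequenced on a NextSeq instrument, per the labels. The authors deposited whole read counts per mature microRNA, without normalization, and log2 values scaled between libraries, with values below 4 reads missing. The miRBase release, genome build and aligner were not given in the sources used here. Reads that match more than 1 mature sequence can be lost or moved between names. The deposited log2 values equalled the counts scaled by library totals of microRNAs with at least 4 reads (largest difference 4.97e-14), although the methods describe scaling by geometric means. All value columns matched a label (0 unused). Which library belongs to which diet, and so the sign of every fold change, rests on the deposited column names and titles alone.

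Of 1907 microRNAs, 716 had a read and 437 had at least 4 reads in at least 3 libraries. These were tested by quasi-likelihood F-tests of edgeR (version 4.0.16 in R 4.3.3; TMM, Benjamini-Hochberg at 0.05), diet only, in place of the study's DESeq2. DESeq2 1.42.0, limma-voom and limma 3.58.1 on the deposited log2 values, other scalings and filters, a replicate block and leaving out libraries were alternatives. The edgeR step was tested on simulated data. log2(CPM + 0.5) was used for profiles and permutation tests (scipy 1.17.1). Between libraries of a diet the chi-square per degree of freedom was at least 253, so none was deposited again. A count of 0 allows 0.244 to 0.480 CPM.

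The microRNAs named were the members, miR-96-3p, listed microRNAs with a member's seed, the 3 of highest and the 1 of lowest r with the cluster, both miR-33 arms, and the most abundant and smallest-p member of each list. Members and lists were chosen with earlier results of these data known. miR-3475-5p, with the seed of miR-96-3p, had 0 reads.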

Additional observations from a re-analysis of the deposited data

How the results depend on the processing

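No cluster member was called in any of 15 alternative fits. Over the whole table the call count was 0 by edgeR and stayed 0 with each library left out. But it was 8 without the filter on low counts, 2 by DESeq2 and 5 with the replicate number as a block. The fit without that filter pooled the spread over all its microRNAs, so its calls do not measure the spread of each between mice. The block was not taken as a pairing: same-numbered libraries correlated at 0.080, -0.094 and 0.018 in their deviations from the diet means, and not every library correlated best with its own number; the block called no member. Its calls included miR-215-5p, miR-375-3p and miR-145a-5p, and DESeq2 also called miR-145a-5p (adjusted p = 0.00952). Leaving out each library gave log2 fold changes of -0.36 to 1.07 for miR-183-5p, -0.23 to 0.59 for miR-182-5p, 0.62 to 1.85 for miR-96-5p and -6.45 to 1.17 for miR-183-3p, of -0.19 to 0.11 for miR-1198-5p, -0.28 to 0.42 for miR-15b-5p, -0.0432 to 0.0330 for miR-31-5p, -0.11 to 1.40 for miR-33-5p and -0.05 to 0.51 for miR-451a, so these signs can turn, except for miR-96-5p, and the cause was not tested. The summed level of the cluster gave a log2 ratio of -0.23 to 0.54. Signs also turned without the filter for miR-1198-5p (0.0417) and miR-31-5p (0.0625), at a mean count of at least 10 for both (0.0123 and 0.0317), on the deposited log2 values for miR-183-3p (0.74, with its zeros missing) and miR-15b-5p (-0.0110), and, in a fit chosen after seeing the data, without both regular replicate 1 and soy replicate 1 for miR-1198-5p (0.05) and miR-451a (-0.0785). With fewer than 30 reads in each library, miR-183-3p shows no difference that this depth could resolve.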

Other observations

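miR-215-5p, which shares its seed with miR-192-5p and is made by liver and gut epithelium, set soy replicate 1 and regular replicate 1 apart more widely than any 5p arm of the cluster, and was named after its values were seen. It stood at 166, 2679 and 2711 CPM in soy replicates 1, 2 and 3, against 127, 1302 and 1240 CPM in regular replicates 1, 2 and 3, so that its highest library exceeded its lowest by 21.3 times, against 6.65 times for miR-96-5p. Over the 6 libraries it ran against the summed level of the cluster (r = -0.865, rho = -0.543), but without that pair of libraries r was 0.361. Its log2 fold change between the diets was 1.06 ± 0.92 (SE, edgeR adjusted p = 0.982), and edgeR without the filter on low counts called it (adjusted p = 9.79e-06). That fit pooled the spread over all 716 microRNAs with a read. Its p therefore does not measure the spread of miR-215-5p between mice, which ran from 166 to 2711 CPM within soy.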
